A study of Danio rerio with 4 samples.

Results

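Genes for cell adhesion and cell recognition were examined in zebrafish embryos in which the function of Pou5f3, an Oct4-type POU transcription factor, had been blocked by heat shock. The families were the cadherins, protocadherins, claudins, integrins, Eph receptors and ephrins, taken by the start of the gene symbol in the array annotation. They comprised 61 of the 8793 genes with a symbol of their own, on 78 of the 15617 probe sets: 8 cadherins, 7 protocadherins, 24 claudins, 5 integrins, 9 Eph receptors and 8 ephrins. Where a gene had several probe sets, the brightest over the 4 arrays was used.

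Cadherins and protocadherins are calcium-dependent adhesion molecules. The classical cadherins join like cells and hold the actin skeleton through catenins, whereas protocadherins adhere more weakly and are known for guiding cell movement and sorting in the embryo. Claudins are the strand-forming proteins of tight junctions and set the permeability of epithelia. Integrins, each a pair of an α and a β chain, bind the extracellular matrix. Eph receptors are tyrosine kinases that read ephrins on neighbouring cells, with ephrin-A ligands held by a lipid anchor and ephrin-B ligands spanning the membrane, and this contact commonly keeps cells of different territories apart. In the late gastrula these families act in epiboly, convergence and extension, somite formation and the partition of the neural plate.

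The 4 groups, of 1 array each, were compared. Embryos of the RW strain came from crosses of hemizygous Tg(hsp:en-pou5f3) fish with wild-type fish. The transgene encodes a fusion of the Engrailed repressor domain with Pou5f3 and is driven in the whole embryo by a heat shock promoter. Carriers (en-pou5f3+) and their wild-type clutchmates were raised at 25°C, and both genotypes received the same heat shock at 37°C for 60 min, at 90% epiboly or at the 3-somite stage (3-ss), and a further 30 min of development. RNA of single genotyped embryos was pooled by genotype, and 250 ng of each pool was labelled. The study's own tables head these columns as without and with heat shock, whereas the labels and protocols name genotypes that were both heat shocked. The labels were followed, and the ratios are read as genotype ratios on that basis. With 1 array per group in the labels, no difference had a replicate check and none was tested. As a guide to the scatter between probe sets, the log2 ratio of carrier over wild-type signals was compared between probe sets of the same gene. It had an SD of 0.27 at 90% epiboly and 0.34 at 3-ss. This SD comes from probe sets with signals over background on both arrays. It holds no variation between embryos and no error that the probe sets of an array share.

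The authors' scaling set the 2%-trimmed mean signal to 500.1 on each array. The median signals were 120.1 and 123.2 at 90% epiboly and 133.9 and 135.9 at 3-ss, in wild-type embryos and carriers, and between 42 and 48 of the 61 genes had a signal over the floor of 32.4 on an array. Control probe sets of the manufacturer that have no target in the sample set this floor, as the 95th percentile of their 80 signals. Lower signals were set to the floor before a log2 ratio was taken. A ratio with 1 signal under the floor is a bound, and where both signals were under it no ratio was given. On this array pou5f3, whose probe set may read the endogenous gene and the transgene, was higher in the carrier array at both stages (log2 ratios 0.60 and 0.74). Among markers of the tissues of the whole embryo, all 12 genes listed for the neural plate, all 7 for endoderm and all 8 found for the enveloping layer and periderm had a signal over the floor on at least 1 array.

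At 90% epiboly, carriers had 5 of the 61 genes lowered by 2-fold or more and 0 raised to that extent. They were the protocadherin genes pcdh18a, pcdh8, pcdh1b and pcdh10b and the Eph receptor gene epha2a. Of the 61, 46 had a signal over the floor in at least one genotype, and 39 of these in both. Over all 7261 genes measured in this way, 2.26% were 2-fold lower and 1.10% were 2-fold higher. The median log2 ratio was -0.15 over the 46 genes and 0.03 over all genes. In whole embryos, fewer cells of a type and less RNA per cell cannot be told apart.

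At 3-ss the same 5 genes were at least 2-fold lower, again with 0 higher, among 49 with a signal over the floor. When the floor was added to both signals instead, pcdh18a and pcdh8 alone passed 2-fold at this stage, and pcdh1b fell short of it at 90% epiboly as well. The corresponding shares of all 7467 measured genes were 1.85% lower and 1.58% higher, and the medians were -0.08 for the adhesion genes and 0.00 for all genes. Of the 45 genes measured at both stages these 5 were lower at both, whereas 0.837% of the 7049 genes measured at both stages were. Without the protocadherins, epha2a alone remained as a 2-fold difference at either stage, and the medians were -0.08 and -0.01.

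**Figure D1:**
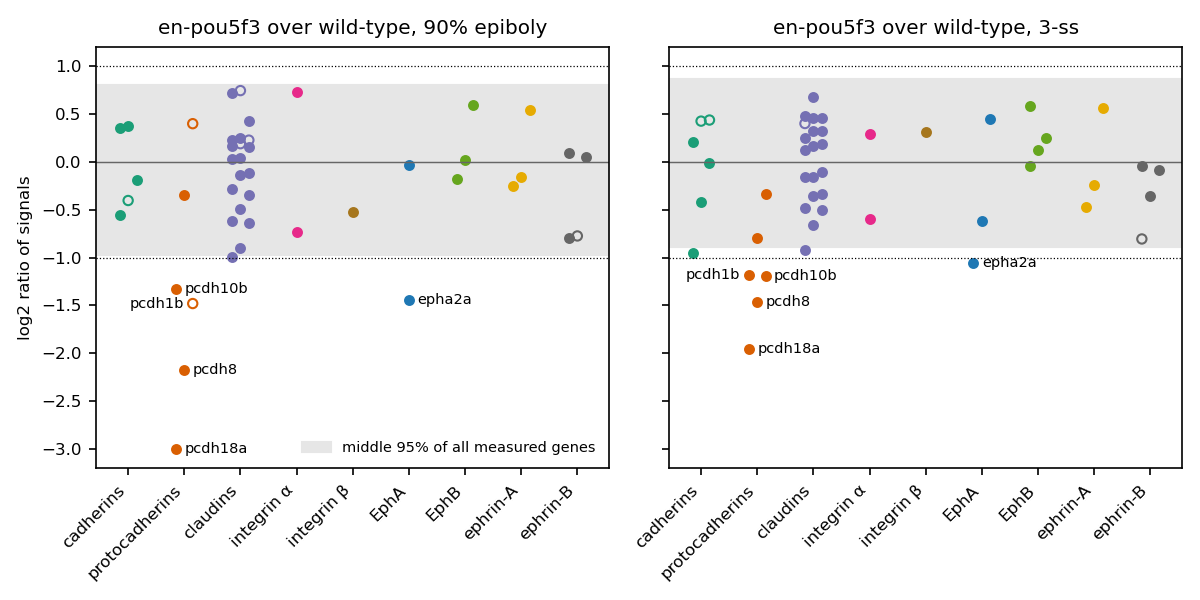
Log2 ratio of carrier over wild-type signals for each adhesion gene, by family, at 90% epiboly (left) and 3-ss (right). Each point is 1 gene on 1 pair of arrays, open points are bounds, the grey band holds the middle 95% of all measured genes and dotted lines mark 2-fold; 4 protocadherins and epha2a lie under the lower line in both panels, and 0 genes lie over the upper one.

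The protocadherins were the family with the lowest values. Of their 7 genes 6 were measured, 4 were at least 2-fold lower at each stage, and the median log2 ratio of the 6 was -1.40 at 90% epiboly and -1.19 at 3-ss. The remaining gene, pcdh1a6, was under the floor on all 4 arrays. The values of pcdh1b and pcdh10a at 90% epiboly are bounds.

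Signals of pcdh18a, a protocadherin of the delta class, were 276 in wild-type embryos and 34.6 in carriers at 90% epiboly, and 164 and 42.3 at 3-ss. Both carrier signals lay just over the floor. The log2 ratios were -3.00 and -1.96, a 7.99-fold and a 3.88-fold decrease, and at 90% epiboly this gene had the 18th lowest ratio of all 7261 measured genes. A second pcdh18a probe set was under the floor on all 4 arrays and gave no check.

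The gene pcdh8 encodes paraxial protocadherin, known for its part in convergence movements and somite formation. Its signal went from 190 in the wild type to 42.1 in carriers at 90% epiboly (log2 ratio -2.17), and from 236 to 85.4 at 3-ss (-1.47). Both carrier arrays lay under both wild-type arrays. Of 9 markers of the paraxial mesoderm, a tissue in which pcdh8 is known to be expressed, 4 were lower by 2-fold at 90% epiboly and 1 at 3-ss. At each stage 3 of the 9 had a log2 ratio above 0, and tbx6 at 90% epiboly was just short of 2-fold higher (943 and 1861, 0.98). The summed signal of the 9 was 19954 in wild-type embryos and 21035 in carriers at 90% epiboly and 16989 and 17024 at 3-ss. Most of each sum is the signal of a single marker, msgn1, at 11362 and 12956, then 12524 and 12655. The sums therefore say little about the other markers. The part of these markers in the pcdh8 values was not tested.

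For pcdh10b, another delta-class protocadherin, the signals were 192 and 76.6 at 90% epiboly and 177 and 77.3 at 3-ss, log2 ratios of -1.32 and -1.19. Those of pcdh1b were 90.5 and 30.8 at 90% epiboly, at least a 2.79-fold decrease, and 77.7 and 34.2 at 3-ss, a 2.27-fold decrease. Within each of these genes the pair of wild-type signals and the pair of carrier signals were close to each other across the stages. The paralogue pcdh10a differed from pcdh10b in direction at 90% epiboly. Its signals there were 26.1 in the wild type and 42.8 in carriers, and the log2 ratio of 0.40 is a bound. At 3-ss they were 114 and 65.5 (-0.79), a ratio under 0 as for pcdh10b. The other pcdh10a probe sets were under the floor on all 4 arrays and gave no check. The signal of pcdh19, known from the zebrafish neural plate, had a log2 ratio of -0.34 at both stages (792 and 624, then 613 and 486).

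The receptor gene epha2a was the 2-fold lower gene outside the protocadherins. Its signals were 423 in wild-type embryos and 155 in carriers at 90% epiboly and 465 and 224 at 3-ss, so that both wild-type arrays lay over both induced ones. The log2 ratios were -1.45 and -1.06. The genes pcdh8, pcdh10b, pcdh1b and epha2a have 1 probe set each, and their values therefore had no second reading on the same array.

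**Figure D2:**
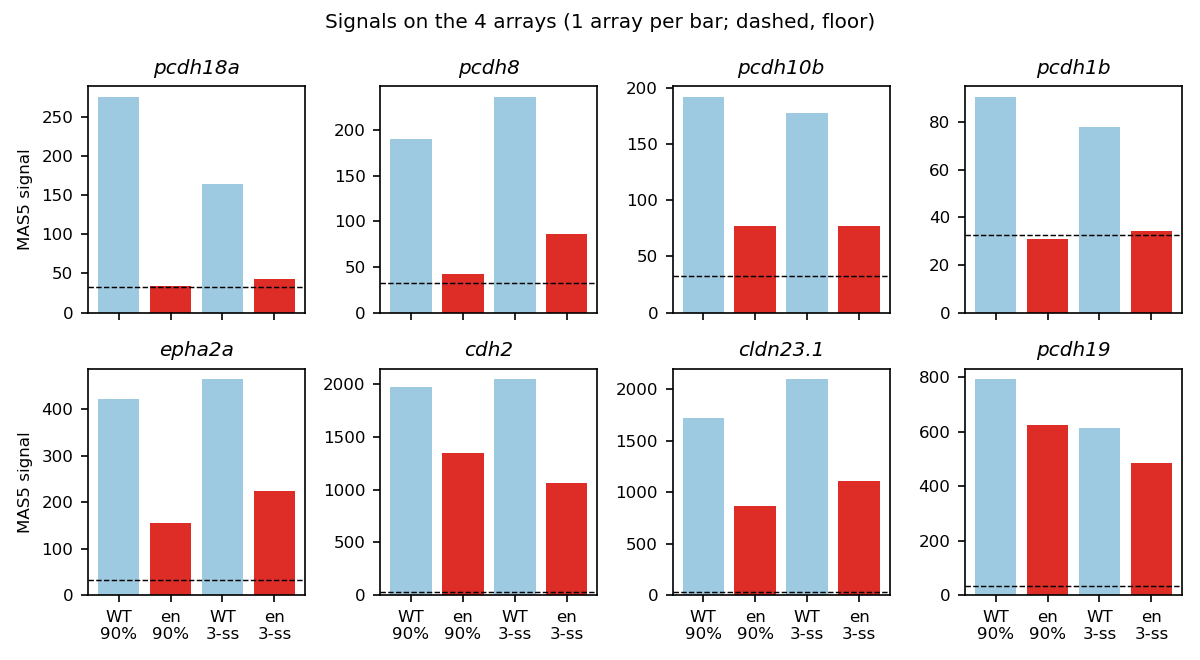
MAS5 signals on the 4 arrays for the 5 genes at least 2-fold lower at both stages, with cdh2, cldn23.1 and pcdh19 beside them. Each bar is 1 array (blue, wild-type; red, en-pou5f3+), each panel has its own linear axis from 0, and the dashed line is the floor; in every panel the red bar is lower than the blue bar of its stage.

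Markers of other tissues were measured on the same arrays. Of 12 neural plate markers 8 were 2-fold lower at 90% epiboly and 6 at 3-ss. The other 4 at 90% epiboly were sox19a (log2 ratio -0.04), sox19b (0.38), otx2b (0.20) and pax6a (0.74). The summed signal of the 12 was 32337 in wild-type embryos against 16486 in carriers at 90% epiboly and 21201 against 12594 at 3-ss. Among the lower markers, pax6b, foxb1a, sox2 and sox3 are genes that the study itself reports as downregulated by the transgene. It also lists zic2a and zic2b, as lowered at 90% epiboly alone. Among 8 markers of non-neural ectoderm 2 were lower and 1 higher at 90% epiboly and 3 were lower at 3-ss. Their summed signals were 11826 and 5147, then 8747 and 4067. A large part of this difference is tfap2a alone, at 4721 and 797, then 3653 and 838. The log2 ratios of gata2a, gata3, tfap2c and tp63 lay between -0.75 and -1.35 at both stages. Those of foxi1 were -0.41 and 0.23 and those of dlx5a 1.24 and -0.03, whereas dlx3b read 785 and 798, then 610 and 635. Of 6 axial mesoderm markers 2 were lower at 90% epiboly and 0 at 3-ss, and of 7 endoderm markers 2 were lower at 90% epiboly, while at 3-ss 1 was lower and 1 was higher. Summed endoderm signals were 4969 and 2861, then 2182 and 1349. The largest single difference at 90% epiboly was that of cxcr4a, at 1542 and 351. There gata5, gata6 and foxa1 had log2 ratios of -0.75, -1.03 and -0.97, and sox17, foxa3 and sox32 had -0.09, 0.02 and 0.00. At 3-ss 6 of the 7 endoderm markers were measured, and the higher value, that of sox32, is a bound. Both measured markers of the prechordal plate and hatching gland were lower at both stages, with summed signals of 1938 and 511, then 1011 and 232. Among 8 enveloping layer and periderm markers agr1 was 2-fold lower at 90% epiboly and 0 passed 2-fold at 3-ss. All 8 had a log2 ratio under 0 at 90% epiboly, as had 3239 of all 7261 measured genes. Apart from agr1 their ratios ran from -0.01 to -0.32, beside an SD between probe sets of 0.27. The summed signals of the 8, which are mostly those of keratins, were 109584 and 100446 at 90% epiboly and 114325 and 111262 at 3-ss. Whether these shifts have a part in the protocadherin and epha2a values was not tested.

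The log2 ratios of these 5 genes were nearer to 0 at 3-ss than at 90% epiboly. The log2 ratio at 3-ss exceeded that at 90% epiboly by 1.04 for pcdh18a, by 0.70 for pcdh8, by 0.39 for epha2a and by 0.13 for pcdh10b, and by at least 0.30 for pcdh1b, whose value at 90% epiboly is a bound. Between probe sets of one gene such a difference has an SD of 0.43, which holds no variation between pools of embryos, and whether the stages differ was not tested.

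**Figure D3:**
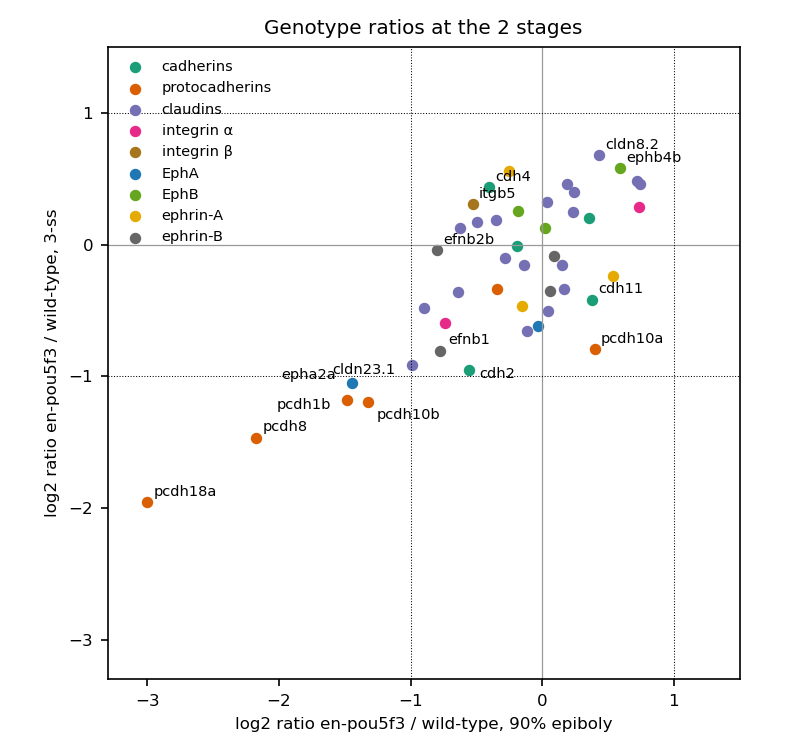
Log2 ratio of carrier over wild-type signals at 90% epiboly (horizontal) and at 3-ss (vertical) for the 45 genes measured at both stages, coloured by family. Dotted lines mark 2-fold; the 5 lowered genes form the lower left tail, and pcdh10a and cdh11 are among the genes at the lower right, above 0 at 90% epiboly and below it at 3-ss.

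Of the cadherins 0 reached 2-fold. The signal of cdh1, the gene for E-cadherin that is needed for epiboly, was 2292 in wild-type embryos and 2004 in carriers at 90% epiboly and 2601 and 2582 at 3-ss (log2 ratios -0.19 and -0.01). That of cdh2, the gene for N-cadherin of the neural plate and mesoderm, was 1975 and 1345 at 90% epiboly and 2046 and 1059 at 3-ss, with log2 ratios of -0.55 and -0.95. The dimmer cdh2 probe set gave -0.42 and -0.87. Both probe sets placed cdh2 just short of 2-fold at 3-ss. Of the 8 cadherin genes 5 were measured at 90% epiboly and 6 at 3-ss, with medians of -0.19 and 0.10. The genes cdh13 and cdh15 were under the floor on all 4 arrays. For cdh11, the signals were 452 and 586 at 90% epiboly and 644 and 482 at 3-ss, log2 ratios of 0.38 and -0.42. Its dimmer probe set gave 0.83 and 0.35, so that the direction at 3-ss depends on the probe set. For cdh4, the R-cadherin gene, signals of 42.9 and 25.9 and then 32.0 and 43.9 stayed close to the floor and give only bounds, and cdh17 and cdh18a reached at most 43.6 and 53.2.

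Over 20 measured claudins at each stage, 0 reached 2-fold, and the medians were 0.04 at 90% epiboly and 0.15 at 3-ss. The values of cldn1, cldna and cldnj at 90% epiboly are bounds, since the wild-type signal was under the floor, and they leave room for a 2-fold increase: cldn1 had 14.8 in the wild type and 54.4 in carriers, at least 1.68-fold. At 3-ss the value of cldnd is such a bound too, with 16.0 in the wild type and 42.8 in carriers, at least 1.32-fold. The genes cldn10l2, cldn11a and cldn8.1 were under the floor on all 4 arrays. The nearest to 2-fold was cldn23.1, with signals of 1720 and 865 at 90% epiboly and 2097 and 1111 at 3-ss and log2 ratios of -0.99 and -0.92. With median centring it passed 2-fold at 90% epiboly. At 1.5-fold, 4 claudins were lower at 90% epiboly (cldn23.1, cldnk, cldn3d and cldni) and 2 higher (cldn1 and cldn3c). At 3-ss 2 were lower (cldn23.1 and cldnb) and 1 higher (cldn8.2). Over all genes, 1.5-fold gave 455 lower and 382 higher of 7261 at 90% epiboly. At 3-ss it gave 511 lower and 507 higher of 7467. The log2 ratios of cldnk were -0.90 and -0.48, and those of cldn8.2 were 0.43 and 0.68. The claudin of the enveloping layer, cldne, had -0.29 and -0.10, beside the summed periderm signals above.

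Among the integrins, 3 of 5 genes were measured. The signal of itga5, the fibronectin receptor chain that acts in somite boundaries, was 44.5 and 73.9 at 90% epiboly and 97.2 and 119 at 3-ss, log2 ratios of 0.73 and 0.29. That of itga6b, a laminin receptor chain, was 110 and 66.3, then 95.8 and 63.5 (-0.73 and -0.59). For itgb5, whose chain pairs with αV, the log2 ratio was -0.53 at 90% epiboly and 0.31 at 3-ss. The genes itga2b and itgae.2 were under the floor on all arrays.

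Of the 9 Eph receptors 5 were measured at 90% epiboly and 7 at 3-ss, with medians of -0.04 and 0.13. The genes epha4l and epha6 were under the floor on all arrays. For epha4a, a receptor of rhombomere and somite boundaries that binds both ligand classes, the log2 ratio was -0.04 at 90% epiboly (signals 389 and 380) and -0.62 at 3-ss (772 and 503). A dimmer epha4a probe set gave -0.87 at 3-ss. The log2 ratios of ephb2b were 0.02 and 0.13 and those of ephb3a were -0.18 and 0.25. The vessel receptor ephb4a was under the floor in both genotypes at 90% epiboly, and its signals at 3-ss were 41.8 and 40.6. Its paralogue ephb4b was higher in both carrier arrays, at 92.1 and 139 and then 92.3 and 138, with log2 ratios of 0.59 and 0.58.

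The ephrins included 0 genes at 2-fold, with medians of -0.15 and -0.24 over 7 measured genes at each stage, efna5b being under the floor throughout. Among the ephrin-B ligands efnb1 went from 55.5 to under the floor at 90% epiboly and from 56.7 to under it at 3-ss, bounds of -0.77 and -0.81. The log2 ratio of efnb2b was -0.80 at 90% epiboly (738 and 424) and -0.04 at 3-ss (328 and 319), and its other probe set gave -0.54 and -0.37. For efnb2a, the arterial ligand that also marks somites and rhombomeres, it was 0.06 and -0.36. The ephrin-A genes efna2a, efna3b and efna5a ranged from -0.25 to 0.54 at 90% epiboly and from -0.47 to 0.56 at 3-ss.

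The 90% epiboly and 3-ss arrays were also compared within each genotype. These names give the stage at the start of the heat shock, and the embryos were older when RNA was taken. The arrays hold separate pools of heat-shocked embryos, so the same embryos were not followed from stage to stage. In the wild type 9 of the 61 genes were at least 2-fold higher at 3-ss and 3 were lower, among 48 with a signal over the floor at one stage or the other. Over all 7411 measured genes 8.24% were higher and 3.82% lower. In carriers 8 were higher and 1 was lower among 49, against 7.59% and 3.22% of 7453 genes. The median log2 ratio of the adhesion genes was 0.28 in the wild type and 0.32 in carriers, and that of all genes was 0.02 in both. The calls in carriers were 88.9% higher ones, against 75.0% (6 higher, 2 lower) with median centring and 71.4% (5 and 2) with quantile normalization. Over all 7453 genes in carriers, 566 were higher and 240 lower without rescaling, so a majority of higher calls is not particular to the adhesion genes. In carriers cldn3c and pcdh8 were under 2-fold with either scaling, and cldn5a with quantile normalization, while ephb3a passed it downwards with both.

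Claudins made up 7 of the 9 higher genes in the wild type and 6 of the 8 in carriers, and cldni, cldn1, cldn5a, cldna, cldn15la and cldn3c were higher in both. Claudins were also the largest family, with 20 genes measured in the wild type and 21 in carriers. Of these 35.0% and 28.6% were higher, against 8.24% and 7.59% of all genes. The medians over the measured claudins were 0.39 and 0.57. The signal of cldni was 459 at 90% epiboly and 3809 at 3-ss in the wild type, an 8.31-fold difference, and 298 and 4159 in carriers, a 14.0-fold one. In carriers this was the 4th highest stage ratio of all 7453 genes. Its probe set is of a kind whose probes match several transcripts of one gene. Both 3-ss arrays were far over both 90% epiboly arrays for this gene.

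Other claudins rose from low signals. The signal of cldn1 went from under the floor (14.8) to 138 in the wild type, at least 4.24-fold, and from 54.4 to 189 in carriers. That of cldn5a, known from the brain ventricle and the blood-brain barrier, went from 42.3 to 137 in the wild type and from 43.5 to 97.0 in carriers, log2 ratios of 1.70 and 1.16. The other cldn5a probe sets reached at most 38.8. The genes cldna and cldn15la rose from signals under the floor in the wild type to 80.2 and 78.5, bounds of 1.30 and 1.27. For cldn3c the signals were 88.0 and 212 in the wild type and 145 and 296 in carriers. In contrast, the stage log2 ratios of cldn3d were -0.57 in the wild type and -0.29 in carriers, and those of cldne were -0.55 and -0.36.

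The epidermal claudin gene cldnb was 2-fold higher in the wild type alone, at 1851 and 3997 (1.11, under 2-fold with median centring), whereas its signals in carriers were 1705 and 2535 (0.57). Between the stages its genotype log2 ratio thus changed by -0.54, beside an SD between probe sets of 0.43 or 0.53 for such a change, estimated from the genotype or the stage ratios, and this was not tested. The 4 probe sets of cldng gave stage log2 ratios of 0.63, 0.54, -0.14 and -0.34 in the wild type, so that the probe sets did not share a direction. Enveloping layer and periderm markers had a median stage log2 ratio of 0.06 in the wild type and 0.29 in carriers. Blood and vessel markers were higher at 3-ss, with summed signals over 3 genes of 76.2 and 713 in the wild type and 133 and 663 in carriers. At 90% epiboly gata1a and tal1 were under the floor in the wild type and tal1 in carriers, and the markers' part in the claudin values was not tested.

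**Figure D4:**
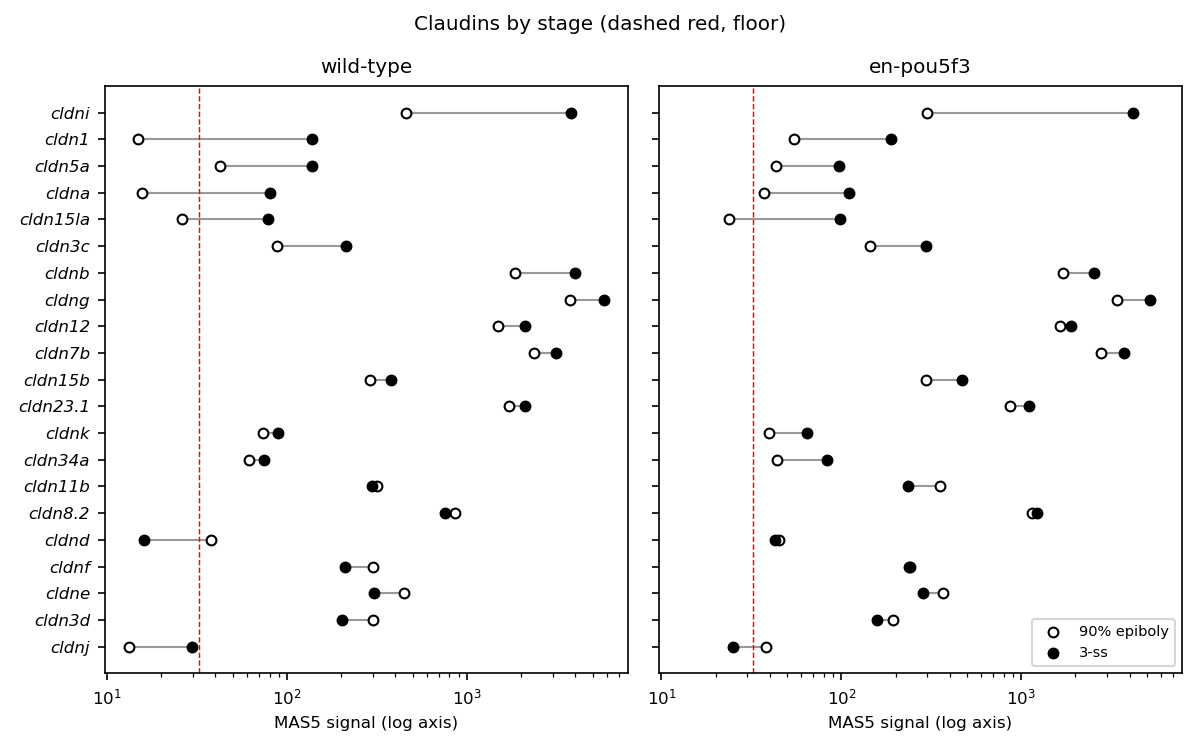
MAS5 signals of the 21 claudin genes with a signal over the floor on at least 1 array, at 90% epiboly (open) and 3-ss (filled), in wild-type embryos (left) and carriers (right), on a logarithmic axis with the floor as a dashed line. Genes are ordered by the wild-type stage ratio; cldni spans the widest interval in carriers, from 298 to 4159.

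Genes of the integrin, Eph and ephrin families went both ways. The signal of itgb5 was 662 at 90% epiboly and 137 at 3-ss in the wild type and 459 and 170 in carriers, log2 ratios of -2.27 and -1.43. In the wild type this was the 20th lowest ratio of all 7411 genes. The genes ephb3a and efnb2b were 2-fold lower in the wild type (227 and 86.5, and 738 and 328), with log2 ratios of -1.39 and -1.17, and had -0.96 and -0.41 in carriers. The second efnb2b probe set gave -1.16 and -0.99. For ephb2b the stage log2 ratios were -0.74 and -0.63.

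The stage log2 ratio of itga5 was 1.13 in the wild type and 0.68 in carriers, and under 2-fold in both with median centring or quantile normalization. That of epha4a was 0.99 and 0.41, just short of 2-fold in the wild type. The signal of epha4b went from under the floor to 53.2 in the wild type and to 72.8 in carriers, bounds of 0.71 and 1.17. Among protocadherins pcdh10a was at least 3.50-fold higher at 3-ss in the wild type and had a log2 ratio of 0.62 in carriers. Its other probe sets were under the floor throughout. The gene pcdh8 was higher in carriers (1.02) and had 0.32 in the wild type. The pcdh18a signal went down between the stages in the wild type (-0.75) and was slightly up in carriers (0.29), from 34.6 to 42.3.

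**Figure D5:**
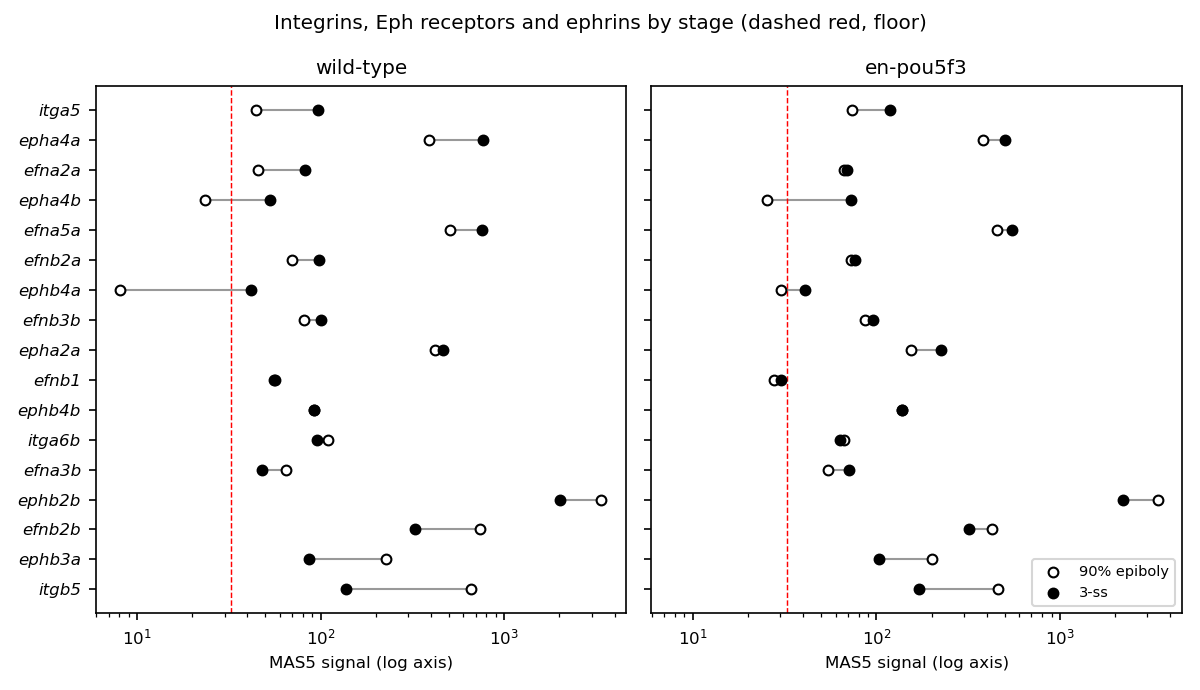
MAS5 signals of the 17 integrin, Eph receptor and ephrin genes with a signal over the floor on at least 1 array, at 90% epiboly (open) and 3-ss (filled), in wild-type embryos (left) and carriers (right), on a logarithmic axis with the floor as a dashed line. Genes are ordered by the wild-type stage ratio; itgb5, at the bottom, went from 662 to 137 in the wild type.

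Partners of these proteins were followed as lists of the catenins and other proteins that work with them. Of 10 measured cadherin partners and 9 tight junction partners, 0 passed 2-fold in either genotype comparison, and the medians were 0.09 and 0.00 for the former and -0.05 and 0.07 for the latter at 90% epiboly and 3-ss. Of the measured integrin adaptors 0 of 9 passed it at 90% epiboly and 1 of 11 at 3-ss, where tln2a, a talin, was at least 3.35-fold higher in carriers (13.8 and 109). The fibronectin gene fn1b was 2-fold lower at 90% epiboly (683 and 319) and had a log2 ratio of -0.18 at 3-ss, and 0 of the other measured integrin ligands passed 2-fold at either stage. Of 13 Eph effectors the adaptor gene nck1a was higher at 3-ss (70.1 and 140). Among 5 measured repressors of cadherin genes twist1a (184 and 68.2) and zeb1b (642 and 292) were lower at 90% epiboly, and 0 of 5 passed 2-fold at 3-ss. Over all measured genes 2.26% were lower and 1.10% higher at 90% epiboly, and 1.85% and 1.58% at 3-ss. At such shares a short list often holds 0 calls, so these counts do not show that the partners stayed constant.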

How the data were processed

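Pooled RNA of 4 groups was hybridised to 1 Affymetrix GeneChip Zebrafish Genome Array each. The deposited intensity values are linear signals that the authors computed and scaled with MAS5 (per the labels, version not given in the sources used here). That each column holds a single array was taken from the labels; the study's methods speak of more arrays than the 4 columns analysed here, so whether a column combines several is not settled. Array number and signal over background, not sequencing depth, limit the precision.

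Of the probe sets, 10802 had a single symbol in the annotation, 135 had more, and 4680 were not listed. The 115 manufacturer's controls were left out. All 61 genes kept their symbol in the current gene table. Signals under 32.4 were set to this floor, and a gene was counted as lower or higher at 2-fold, with at least 1 array over the floor. Without replicates no p-value was computed. Calculations used Python 3.11.15, numpy 2.4.6, pandas 2.3.3 and matplotlib 3.10.9. The calling step was tested on simulated data, with changes larger than 2-fold planted in genes well over the floor. That test does not cover calls close to 2-fold or signals close to the floor.

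The members, gene lists and tests were chosen with earlier results of these data known. Genes named are those at 2-fold, the largest ratios of each comparison and family, members with textbook roles (of which efna1b, itgb1a and itgb1b were not among the members), and partner genes at 2-fold. cldnk, cldn8.2, ephb2b, pcdh19 and further examples below 2-fold were picked after their values were seen. Alternatives changed the floor, the scaling, the probe set and the fold threshold.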

Additional observations from a re-analysis of the deposited data

Results flagged for a closer look

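The genes cdh11, pcdh10a and cdh4 had genotype log2 ratios on opposite sides of 0 at the 2 stages, each larger in size than the SD between probe sets of a gene. That SD comes from probe sets over the floor on both arrays. It therefore does not cover the values of cdh4 or that of pcdh10a at 90% epiboly. The difference between the stages was not tested. For cdh11 the ratio was 0.38 at 90% epiboly and -0.42 at 3-ss, a difference of -0.79, while its dimmer probe set gave 0.83 and 0.35. For pcdh10a it was 0.40 and -0.79, a difference of -1.19, and the first value is a bound. The other pcdh10a probe sets were under the floor throughout. For cdh4 it was -0.40 and 0.44, a difference of 0.84, from 4 signals between 25.9 and 43.9, and both values are bounds.

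A probe set outside the comparisons matches 11 genes of the clustered protocadherins, pcdh2aa15 among them, and had signals over the floor. It read 46.6 in wild-type embryos and 52.5 in carriers at 90% epiboly and 68.4 and 34.5 at 3-ss.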

How the results depend on the processing

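All 5 decreases at both stages kept their direction and their 2-fold size with median centring and with quantile normalization. They also kept both without the floor, with the floor at the control median, with the mean of all probe sets and without probe sets whose probes can match several transcripts or genes. These latter settings could not have ended the calls. A lower floor cannot shrink a decrease, and each of the 5 genes had 1 measured probe set, of a kind that was not left out. Leaving out genes under the floor on 1 array removed the pcdh1b value at 90% epiboly. With the floor added to both signals pcdh18a and pcdh8 alone, 2 genes, remained 2-fold lower at 3-ss, and pcdh1b was under 2-fold at 90% epiboly too. The counts of lower genes were 12 and 12 at 1.5-fold and 2 and 1 at 3-fold at 90% epiboly and 3-ss, and 9 at 90% epiboly without the floor. Counts of higher genes became 4 and 1 at 1.5-fold, 7 and 4 without the floor and 7 and 2 with the lower floor. Over all genes, 1.5-fold gave 455 lower and 382 higher of 7261 at 90% epiboly. At 3-ss it gave 511 lower and 507 higher of 7467. For the other settings no share over all genes was taken. Without the floor, genes with both signals under it were counted too, such as itgae.2 at 90% epiboly (0.73 and 14.6). For the stage comparison in the wild type, 3-fold gave 4 higher and 1 lower, 1.5-fold gave 5 lower, no floor gave 15 higher and 8 lower, the lower floor gave 7 lower, and leaving out genes under the floor on 1 array gave 5 higher. In carriers, 1.5-fold gave 14 higher and 4 lower, 3-fold gave 3 and 0, quantile normalization 5 and 2 and median centring 6 and 2. The floor added gave 4 higher there, and no floor or the lower floor 4 lower. Over all genes, 1.5-fold gave 1291 higher and 828 lower of 7411 between the stages in the wild type. In carriers it gave 1229 higher and 814 lower of 7453. Median centring moved the stage median of all genes from 0.02 to -0.13 in the wild type and to -0.12 in carriers, and that of the claudins, an alternative added after the data were seen, to 0.24 and 0.43. Apart from alternatives of construction (threshold, genes left out), the cause of these shifts was not tested. Medians over the measured members of the 61 genes moved by less than the SD between probe sets under each alternative. Which genes count as measured changes with the floor setting. Signals near the floor limit pcdh18a, pcdh1b, cdh4 and efnb1. No paired analysis was possible because each group has 1 array and no replicate number pairs arrays; a fit taking the 2 stages as repeats of the genotype comparison was not run.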

Other observations

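Several of these genes lie next to each other in the gene order of the GRCz12tu assembly, which was used for order alone. The genes cldna, cldnf, cldne and cldnj form one group and cldn3c, cldn3d, cldnb and cldnd another. Neighbours shared a direction between the stages in some cases and not in others. In the wild type the stage log2 ratio was at least 1.30 for cldna, against -0.52 for the adjacent cldnf and -0.55 for cldne, which is adjacent to cldnf. In the other group it was 1.27 for cldn3c and -0.57 for the adjacent cldn3d, and 1.11 for cldnb. The genes pcdh18a and pcdh10a have 0 protein-coding genes between them. At 90% epiboly their genotype log2 ratios were -3.00 and a bound of 0.40, and at 3-ss both were under 0, at -1.96 and -0.79. Another probe set, which matches 14 genes of the clustered protocadherins, read 101 in wild-type embryos and 71.6 in carriers at 90% epiboly and 127 and 124 at 3-ss.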
